A study of Mus musculus with 8 samples.

Results

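The genes of the DNA replication machinery were followed by mRNA-seq in Hepa 1.6 cells, which derive from a mouse hepatoma, with and without knockdown of Kap1. The 40 genes were chosen by name, as subunits and regulators of the machine that copies DNA, and their level and change were taken as a readout of proliferation. All 40 were found among the 21915 genes of the deposited count table, and all 40 passed the filter on low counts, which left 14142 genes for testing. The series holds 8 samples, of which the 4 mRNA-seq samples were used here. Control cells carried an empty pLKO lentiviral vector according to the methods, whereas the sample labels speak of a control shRNA. Kap1 KD cells carried the same vector encoding an shRNA against Kap1, the corepressor also called TRIM28. Both groups held 2 samples, both were grown in the same medium and selected with puromycin, and both were collected 5 days after transduction. In each group, the title of 1 sample ends with the number 2, and the sample without a number is called replicate 1 here. The labels do not say what this number marks, nor whether samples of a group were separate cultures. The p-values thus measure at most the spread between these samples, which may be technical. Where edgeR's model held both group and replicate number, they rest on a dispersion trend common to all genes and not on each gene's own spread. The 4 small RNA samples, from Hepa 1.6 cells and from wild-type and Kap1 Knock-out hepatocytes, hold counts of short RNAs and were not used.

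Replication starts where the origin recognition complex, with Cdc6 and Cdt1, loads the ring of Mcm2 to Mcm7 onto DNA, a step that geminin blocks. The Cdc7 kinase, Cdc45, Mcm10 and the GINS complex turn the loaded ring into the active helicase. RPA coats the unwound strand, DNA polymerase alpha with primase lays down primers, replication factor C loads the sliding clamp PCNA, polymerases delta and epsilon extend the strands, and Fen1 and Lig1 join the Okazaki fragments. Many of these genes are targets of E2F factors and are transcribed towards S phase, so that their mRNAs are abundant in dividing cells such as a hepatoma line.

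The count tables held between 41566888 and 53605115 counts per sample, and the replication genes had between 300 and 33887 counts per gene and sample. Trim28, the gene of KAP1 on chromosome 7 of mm9 (13609501 to 13616384, plus strand), had 456 and 575 CPM in control replicates 1 and 2 and 106 and 78.9 CPM in Kap1 KD replicates 1 and 2, where CPM are TMM-scaled counts relative to library size. Both knockdown samples lay far below both controls, and the log2 fold change was -2.48 (standard error 0.25), although edgeR's quasi-likelihood test gave an adjusted p of 0.99994 without the replicate number in the model. Over all tested genes, 75.8% of the variance lay along a principal component that set replicate 2 apart from replicate 1. In Kap1 KD replicate 2 the 7SK loci summed to 43.0 CPM, against 1.91 to 2.42 CPM in the other samples. Among hepatoma markers, Alb had 441 to 1580 CPM and Krt18 1427 to 2215 CPM, whereas Ttr and Serpina1a, a pair of abundant hepatocyte genes, had at most 0.22 CPM.

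Immune and endothelial markers were low, whereas Dcn and Krt7 from the fibroblast and cholangiocyte lists were not. The 7 fibroblast markers with a value summed to 1231 to 1705 CPM, of which Dcn, a secreted proteoglycan, held 1227 to 1700 CPM, while Col1a2, Pdgfrb and Lum had at most 0.02 CPM. The 4 immune markers with a value summed to 3.69 to 8.32 CPM with Ptprc at 0.17 CPM or less, and the 4 endothelial markers to 0.28 CPM or less. The 4 cholangiocyte markers summed to 139 and 110 CPM in the replicate 1 samples of control and Kap1 KD and to 89.3 and 69.6 CPM in the replicate 2 samples, and thus moved with the replicate number. Krt7, a keratin, had 83.0 and 33.4 CPM in control and 66.5 and 25.1 CPM in Kap1 KD. Between the replicate numbers, Hnf4a rose and Alb fell past 1.5-fold and an adjusted p under 0.05 in edgeR's quasi-likelihood test (log2 fold changes of 0.84 and -0.88). Cd68, Lyz2 and Col1a1 also rose past both thresholds (0.94, 0.76 and 0.63), and Col3a1, Pdgfra, Krt19 and Krt7 fell (-2.96, -0.70, -2.62 and -1.36). Of all tested genes, 9.08% rose and 17.4% fell. Counts per sample were low for Col3a1 (3 to 34), Lyz2 (15 to 33), Col1a1 (32 to 71) and Krt19 (11 to 124). Lyz2 passed narrowly (adjusted p = 0.0498 in edgeR). Pecam1, with 7 to 13 counts, had a log2 fold change of 0.26 and did not pass. With a correction for GC content Col1a1 (0.23) and Pdgfra (-0.53) no longer passed 1.5-fold. In Kap1 KD against control, no marker passed both thresholds. The 9 tested hepatoma markers had a median log2 fold change of -0.46. Both Kap1 KD samples lay below both controls in 6 of them, against 10.6% of all tested genes. With the replicate number in the model, 3 of the 9 were called lower, among them Alb, where 2.4% of all tested genes were. In the same model 1 of 4 tested fibroblast markers was called higher, where 2.06% of all tested genes were, and 1 of 4 cholangiocyte markers lower. The part of the marker genes in the results below was not tested.

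To compare levels between genes, CPM were divided by the length of each gene's merged exons. These levels were not corrected for GC content, along which the libraries differed as given below, and its part in them was not tested. In control cells the 40 genes spanned from 186.6 CPM per kb for Mcm3 to 2.75 CPM per kb for Cdc7, with a median of 25.4 CPM per kb. The MCM ring held 5 of the 6 highest levels. Mcm3 was followed by Pcna at 145 ± 35.2, Mcm7 at 140 ± 20.7, Mcm2 at 129 ± 2.49, Mcm6 at 99.8 ± 5.80 and Mcm5 at 99.2 ± 14.3 CPM per kb in control cells (mean and SD, n = 2). From Pcna to Mcm5, neighbours in this order differed by less than the SD of at least 1 of them, except Mcm2 and Mcm6, whose control samples did not overlap.

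The sixth subunit of the ring did not share this level. Mcm4, on chromosome 16 of mm9 (15623990 to 15637493, minus strand), had 36.6 and 29.0 CPM per kb in control replicates 1 and 2 and 33.9 and 27.1 CPM per kb in Kap1 KD replicates 1 and 2. These 4 values lay below every value of the other 5 subunits, of which the lowest was 89.1 CPM per kb for Mcm5 in control replicate 1, although the ring contains 1 copy of each subunit. The difference is in transcript level per exon length, which a longer merged exon model lowers for any gene. The merged exons of Mcm4 span 3589 bases, within the range of the ring from 2991 for Mcm3 to 4426 for Mcm7. Before division by length, Mcm4 was also lowest, at 97.3 to 131 CPM. The lowest such value of the other subunits was 312 CPM, for Mcm5 in control replicate 1.

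**Figure D1:**
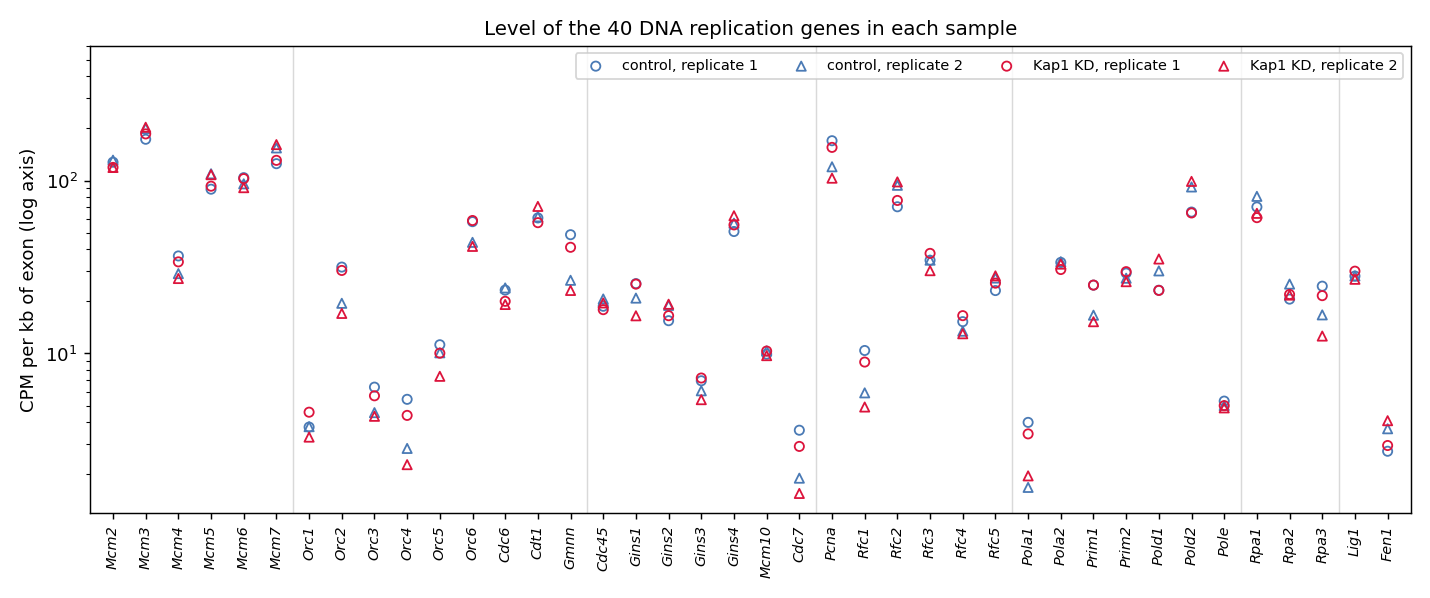
Level of each of the 40 replication genes, in CPM per kb of exon on a log axis, in the 4 samples, with control in blue, Kap1 KD in red, replicate 1 as circles and replicate 2 as triangles. Genes are ordered by role, and vertical lines divide the 7 role groups. Blue and red symbols of the same shape lie close together for most genes, whereas circles and triangles are apart for genes such as Orc4, Gmnn, Cdc7, Rfc1 and Pola1.

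E2F motifs, which were not used to choose the genes, were found in the promoters of 4 of the 6 ring genes. RefSeq promoter windows of GRCm38.p6, which run from 250 bases before to 50 after a start, were matched by symbol for 32 of the 40 genes in 41 windows. The E2F words TTTCCCGC, TTTCGCGC, TTTGCCGC and TTTGGCGC, searched on both strands and counted also where they overlap, were in 13 of these windows (31.7%) and in 744 of all 32851 windows (2.26%). The windows of Mcm3, Mcm5 and Mcm6 and 1 of the 2 Mcm7 windows held 2 or 3 matches each, whereas those of Mcm2 and of the abundant Pcna held 0 and Mcm4 had no window. These 4 windows are printed because they show the motif in ring genes, with the matches in capitals, 5′ to 3′ on the strand of the gene. They lie on the minus strand at chr1:20820263-20820562 for Mcm3, on the plus strand at chr8:75109259-75109558 for Mcm5, on the minus strand at chr1:128359656-128359955 for Mcm6 and on the minus strand at chr5:138171834-138172133 for the second of the Mcm7 windows.
Mcm3 promoter: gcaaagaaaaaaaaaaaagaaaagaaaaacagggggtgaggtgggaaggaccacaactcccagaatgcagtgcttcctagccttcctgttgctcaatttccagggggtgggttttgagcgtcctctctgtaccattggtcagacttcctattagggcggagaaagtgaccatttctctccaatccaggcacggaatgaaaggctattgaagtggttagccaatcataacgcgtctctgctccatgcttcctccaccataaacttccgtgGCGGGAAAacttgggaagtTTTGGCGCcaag
Mcm5 promoter: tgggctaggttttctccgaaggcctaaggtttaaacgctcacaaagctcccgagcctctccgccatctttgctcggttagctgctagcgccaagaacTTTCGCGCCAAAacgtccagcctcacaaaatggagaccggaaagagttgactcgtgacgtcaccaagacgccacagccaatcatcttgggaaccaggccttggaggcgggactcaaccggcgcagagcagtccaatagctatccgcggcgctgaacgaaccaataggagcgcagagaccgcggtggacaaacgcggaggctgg
Mcm6 promoter: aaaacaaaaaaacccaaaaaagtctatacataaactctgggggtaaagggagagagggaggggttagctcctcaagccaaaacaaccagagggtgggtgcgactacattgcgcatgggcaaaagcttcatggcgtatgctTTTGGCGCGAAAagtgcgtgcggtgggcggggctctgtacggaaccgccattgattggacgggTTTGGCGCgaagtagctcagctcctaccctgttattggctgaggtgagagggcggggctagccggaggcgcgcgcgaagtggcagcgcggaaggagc
Mcm7 promoter: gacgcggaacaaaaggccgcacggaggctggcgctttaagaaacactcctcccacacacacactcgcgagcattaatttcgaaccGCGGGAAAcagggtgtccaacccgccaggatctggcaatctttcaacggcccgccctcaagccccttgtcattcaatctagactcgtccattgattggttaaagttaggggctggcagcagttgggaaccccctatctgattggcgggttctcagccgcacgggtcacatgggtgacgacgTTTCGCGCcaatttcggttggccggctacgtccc

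CCAAT boxes, searched as CCAAT on both strands, were in 56.1% of the replication gene windows and in 37.4% of all windows. The cell cycle homology words TTTGAA and TTCGAA were in 22% and 19.2%. A match is a run of letters and was not tested for binding.

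Among the licensing genes, Cdt1 had 61.2 ± 0.653 CPM per kb, Orc6 50.9 ± 9.83 and Gmnn, the gene of geminin, 37.6 ± 15.6 CPM per kb in control cells (SD, n = 2). The 6 origin recognition subunits differed widely from each other, from Orc6 down through Orc2 at 25.5 and Orc5 at 10.7 to Orc3 at 5.47, Orc4 at 4.13 and Orc1 at 3.76 CPM per kb. Orc4 did not differ from Orc3 or from Orc1 beyond its SD (1.84 CPM per kb). The control samples of Orc3 (6.39 and 4.55 CPM per kb) lay above those of Orc1 (3.75 and 3.77 CPM per kb). Among the activation genes, the GINS subunits, which form a tetramer, ranged from 53.7 CPM per kb for Gins4 over 23.1 for Gins1 and 17.2 for Gins2 to 6.52 for Gins3. Cdc45 had 19.7 and Mcm10 10.1 CPM per kb.

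Among the polymerases, the catalytic subunits Pola1 and Pold1 had lower levels than Pola2 and Pold2. Pola1, the catalytic subunit of polymerase alpha, had 2.84 ± 1.64 CPM per kb in control cells and its partner Pola2 33.8 ± 0.211 CPM per kb (SD, n = 2). Pold1, the catalytic subunit of polymerase delta, had 26.6 ± 4.82 and Pold2 78.7 ± 18.4 CPM per kb, while the further delta subunits Pold3 and Pold4, which are not among the 40, lay below Pold1 at 12.6 and 11.9 and at 12.5 and 17.0 CPM per kb in control replicates 1 and 2. Pole, the catalytic subunit of polymerase epsilon, had 5.15 ± 0.213 CPM per kb. The primase subunits Prim2 and Prim1 were close to each other, at 28.2 ± 1.37 and 20.7 ± 5.79 CPM per kb. In the clamp loader, Rfc2 had 82.2 ± 16.5 CPM per kb and the large subunit Rfc1 8.16 ± 3.17. Of the RPA genes, Rpa1 had 75.7 ± 7.54 CPM per kb, and Rpa2 at 22.9 ± 3.23 and Rpa3 at 20.6 ± 5.50 did not differ beyond their SD. Lig1, the ligase of Okazaki fragments, had 28.1 ± 0.0375 CPM per kb.

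Fen1, the flap endonuclease, had only 3.20 ± 0.671 CPM per kb in control cells, from 303 to 463 counts per sample. Of its exonic bases, 84.2% overlapped genes on the opposite strand (Gm10143 and 1810006K21Rik), and 67.3% of those of Gins2 overlapped Gse1. A stranded kit was used, but the strand setting of the counting is not given in the sources used here, so the counts of both genes are uncertain. In a further 10 members, between 0.813% and 12.6% of exonic bases overlapped another gene. Pcna has a near-identical pseudogene, Pcna-ps2, with 98.5% identity over 786 bases and 182 to 361 counts per sample, and the copies of Cdc6 and Rfc5, Gm9430 and Gm12870, had at most 2 counts.

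The comparison of Kap1 KD with control cells asked whether loss of KAP1 changed the expression of the replication machinery. No replication gene passed the thresholds of a 1.5-fold change and an adjusted p under 0.05 in edgeR's quasi-likelihood test. This was so for all genes tested (0% called higher and 0% called lower), and DESeq2 also called 0 of the 40. At an unadjusted p under 0.05 there were 185 genes (1.31%), none of them among the 40. The log2 fold changes of the 40 genes lay between -0.31 for Orc4 and 0.14 for Fen1 with a median of -0.05, against -0.02 over all tested genes, and each had an adjusted p of 0.99994. The 95% interval of the change stayed within 1.5-fold in either direction for 14 of the 40 genes, among them Mcm2, Mcm3, Mcm5 and Mcm6. For the others the interval reached past 1.5-fold, so that this model, which leaves out the replicate number, could not tell a change of that size from none. With the replicate number in the model, the log2 fold changes of the 40 genes lay between -0.31 and 0.13. The standard error of Orc4 was then 0.084 against 0.47 here, with a dispersion that follows a trend common to all genes.

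Licensing genes were among those with the lowest ratios. Orc4, on chromosome 2 (48758344 to 48805797, minus strand), had 40.5 and 21.1 CPM in control replicates 1 and 2 and 32.7 and 17.0 CPM in Kap1 KD replicates 1 and 2, a log2 fold change of -0.31 (standard error 0.47). The Kap1 KD sample was lower in each same-numbered pair, but the groups overlapped because the replicate numbers differed more than the groups. Orc5, another origin recognition subunit on chromosome 5 (21992303 to 22056247, minus strand), had 31.7 and 28.5 CPM in control and 28.4 and 20.8 CPM in Kap1 KD, a log2 fold change of -0.29 (standard error 0.24). Here both Kap1 KD samples lay below both controls, where the smallest p that a two-sided exact permutation test can reach with 2 and 2 samples is 0.333.

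The Cdc7 kinase gene, on chromosome 5 (107393341 to 107413451, plus strand), had 14.9 and 7.86 CPM in control replicates 1 and 2 and 12.0 and 6.41 CPM in Kap1 KD replicates 1 and 2, a log2 fold change of -0.31 (standard error 0.47). As for Orc4, it was lower in both pairs while the groups overlapped. Rpa3, the small RPA subunit on chromosome 6 (8205936 to 8209173, minus strand), had 27.8 and 19.0 CPM in control and 24.5 and 14.3 CPM in Kap1 KD, a log2 fold change of -0.27 (standard error 0.36), again with overlap.

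Rpa1, the large DNA-binding subunit of RPA on chromosome 11 (75111668 to 75161826, minus strand), is encoded by an abundant mRNA. It had 392 and 452 CPM in control replicates 1 and 2 and 340 and 360 CPM in Kap1 KD replicates 1 and 2. Both Kap1 KD samples lay below both controls, and the log2 fold change was -0.27 (standard error 0.17, unadjusted p = 0.176 in edgeR's quasi-likelihood test). With Cdc6 (log2 fold change -0.27, unadjusted p = 0.165 in the same test), it had the lowest unadjusted p of the 40 genes. Rpa2, the middle subunit of the same trimer, had 61.7 and 75.4 CPM in control and 65.7 and 65.1 CPM in Kap1 KD, a log2 fold change of -0.07 (standard error 0.19), so that the groups overlapped.

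Pcna, the sliding clamp on chromosome 2 (132074898 to 132079050, minus strand), had 408 and 288 CPM in control replicates 1 and 2 and 373 and 248 CPM in Kap1 KD replicates 1 and 2. It was lower in Kap1 KD in both pairs, by 0.13 and 0.22 on the log2 scale, with overlapping groups and a log2 fold change of -0.16 (standard error 0.29).

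Among the replication genes, Mcm3 and Mcm7 had the highest counts in every sample, and the ring genes differed little between the groups. Mcm2 had 430 and 442 CPM in control and 401 and 401 CPM in Kap1 KD, and was the ring gene in which the groups did not overlap. Mcm3 had 518 and 598 CPM in control and 556 and 608 CPM in Kap1 KD, and Mcm7 554 and 683 CPM in control and 579 and 714 CPM in Kap1 KD. Both were higher in Kap1 KD in each pair while the groups overlapped. For Mcm5 the values were 312 and 383 CPM in control and 324 and 378 CPM in Kap1 KD, and for Mcm6 454 and 418 CPM in control and 448 and 397 CPM in Kap1 KD. Mcm4 had 131 and 104 CPM in control and 122 and 97.3 CPM in Kap1 KD. The log2 fold changes of the 6 genes lay between -0.12 for Mcm2 and 0.06 for Mcm7, with standard errors from 0.15 to 0.22.

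**Figure D2:**
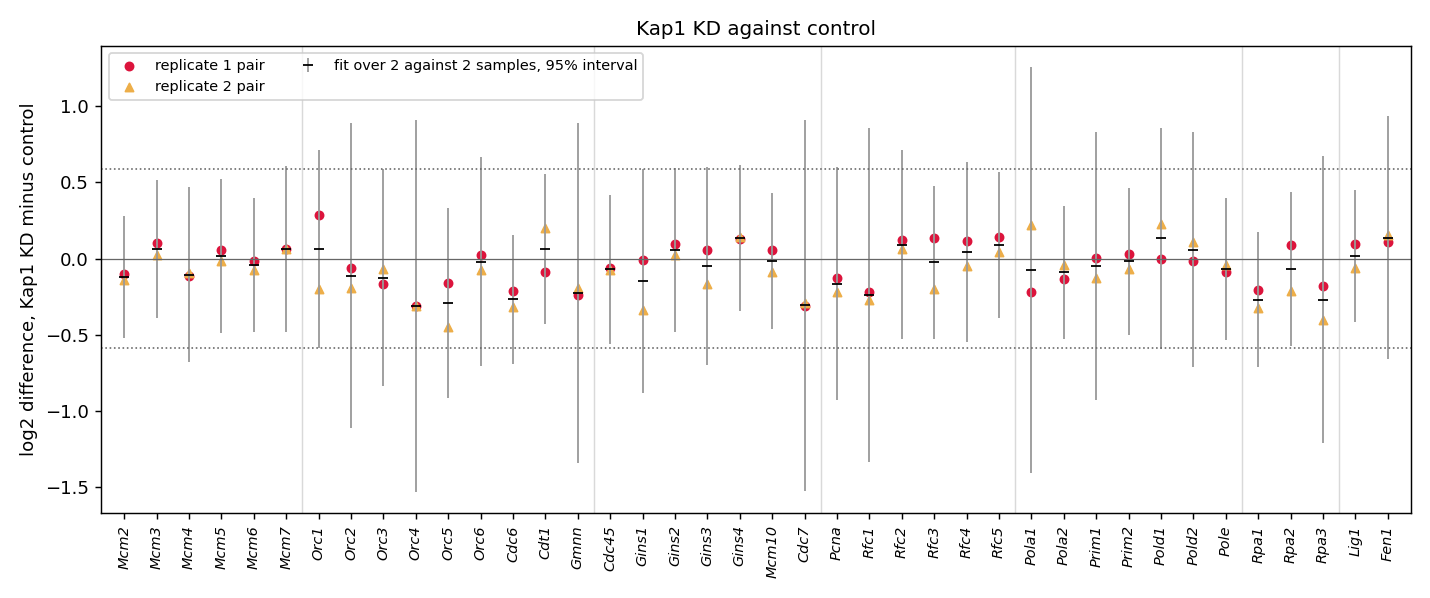
Log2 difference of Kap1 KD and control cells for the 40 replication genes, ordered by role, with the replicate 1 pair as circles, the replicate 2 pair as triangles and the fit over all 4 samples as a bar with its 95% interval. Dotted lines mark 1.5-fold. Every fitted change lies between -0.31 and 0.14, and the intervals are widest for genes that differ between the replicate numbers, such as Orc4, Cdc7 and Pola1.

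In both same-numbered pairs, 18 of the 40 genes were lower in Kap1 KD and 7 were higher (Mcm3, Mcm7, Gins2, Gins4, Rfc2, Rfc5 and Fen1), where 38.1% of all tested genes were lower and 32.8% higher in both pairs. Both Kap1 KD samples lay below both controls in 6 genes (Mcm2, Orc5, Cdc6, Pola2, Pole and Rpa1) and above them in 0, against 10.6% and 9.69% of all tested genes. On the log2 scale, the 40 genes had a median difference of -0.01 between the replicate 1 samples and of -0.08 between those numbered 2. With the replicate number added to the model, edgeR called none of the 40 at both thresholds (2.06% of all genes higher and 2.4% lower), and 9 lower and 0 higher on the adjusted p alone (11.5% lower and 10.1% higher). In this edgeR model the dispersion follows a trend common to all genes, so that its p-values do not measure each gene's own spread. DESeq2 with the same term called 1 of these 9, Rpa1. With a GC correction in the same edgeR model, chosen after seeing the data, Rpa1 still passed the adjusted p (log2 fold change -0.22, adjusted p = 2.04e-04), while Orc4 (-0.13, adjusted p = 0.232), Rpa3 (-0.14, adjusted p = 0.246), Cdc7 (-0.23, adjusted p = 0.108) and Orc5 (-0.18, adjusted p = 0.0772) did not. In bulk RNA, fewer cells in S phase and less RNA per cell cannot be told apart.

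Other genes of the replication and cell cycle programme were taken from lists that are given here by their counts. None passed the thresholds in Kap1 KD against control without the replicate number in the model. This held for 35 further replication and fork genes (median log2 fold change -0.09), 16 genes of nucleotide supply (0.07), 22 genes of the E2F, Rb and cyclin E axis (0.05), 24 mitotic genes (-0.04) and 11 cell cycle inhibitors (0.01). At an unadjusted p under 0.05 there were 1 gene of nucleotide supply, Rrm1, the large subunit of ribonucleotide reductase, and 1 inhibitor, the antiproliferative gene Btg2, both chosen after their values were seen. Rrm1 had 337 and 337 CPM in control and 254 and 219 CPM in Kap1 KD (log2 fold change -0.51), and Btg2 35.6 and 48.6 CPM in control and 66.8 and 96.3 CPM in Kap1 KD (log2 fold change 0.95). In both the groups did not overlap. With the replicate number in the model, edgeR called E2f2 (log2 fold change 0.72, adjusted p = 1.64e-09), Cdkn1a (0.61, adjusted p = 1.54e-23) and Btg2 (0.95, adjusted p = 4.57e-28) higher at both thresholds, where 2.06% of all genes were, and DESeq2 gave them adjusted p of 3.22e-04, 3.97e-10 and 1.50e-18.

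The comparison of the replicate numbers, with the group as a term in the model, asked how far these genes differed between samples of the same condition. Of the 40 genes, 8 fell by more than 1.5-fold in replicate 2 with an adjusted p under 0.05 in edgeR's quasi-likelihood test, which is 20% of them, against 17.4% of all tested genes. None rose past both thresholds, against 9.08% of all tested genes. At an adjusted p under 0.05 alone, 19 fell and 11 rose, where 32.1% and 31.5% of all genes did. DESeq2 also called 8. The median change of the 40 genes was -0.11 on the log2 scale, against -0.0025 over all tested genes, with 0.0023 among control and -0.16 among Kap1 KD cells. In both groups, 14 of the 40 were higher and 19 lower in replicate 2, as were 42.8% and 43.4% of all tested genes. With 1 residual degree of freedom in this model and an infinite prior estimate, the dispersion follows a trend common to all genes. The very small p-values below therefore do not measure the spread of each gene. Without the group term, edgeR's adjusted p was 0.00889 for Orc4 and 0.0057 for Pola1, and the same number of the 40 genes was called.

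The 8 genes that fell came from 5 of the 7 role groups. In licensing, Orc4 fell from 40.5 to 21.1 CPM in control and from 32.7 to 17.0 CPM in Kap1 KD, which is -0.94 as a log2 fold change (standard error 0.08, adjusted p = 2.05e-27 in edgeR). Gmnn, whose product holds Cdt1 in check, had 57.8 and 31.5 CPM in control replicates 1 and 2 and 48.9 and 27.5 CPM in Kap1 KD replicates 1 and 2, a log2 fold change of -0.85, and Orc2 fell by 0.76 on the log2 scale. In all of them both replicate 2 samples lay below both replicate 1 samples. Cdt1 itself, at 133 and 135 CPM in control and 125 and 155 CPM in Kap1 KD, had a log2 fold change of 0.17.

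In helicase activation, Cdc7 fell by 0.91 on the log2 scale (standard error 0.12, adjusted p = 8.95e-14 in edgeR), with both groups alike. The other 6 activation genes had log2 fold changes between -0.44 for Gins1 and 0.26 for Gins2. In the clamp loader, Rfc1, on chromosome 5 (65653091 to 65726909, minus strand), fell from 62.4 to 35.5 CPM in control and from 53.5 to 29.4 CPM in Kap1 KD, or -0.84 on the log2 scale (standard error 0.07, adjusted p = 1.63e-27 in edgeR). Rfc2, a small subunit of the same complex, moved the other way, from 107 to 142 CPM in control and from 116 to 149 CPM in Kap1 KD (log2 fold change 0.38, adjusted p = 2.94e-07 in edgeR). Pcna fell by 0.55 on the log2 scale, just inside 1.5-fold.

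Subunits of the polymerases also parted. Pola1, on the X chromosome (90550106 to 90877494, minus strand), had 35.2 and 14.8 CPM in control replicates 1 and 2 and 30.2 and 17.3 CPM in Kap1 KD replicates 1 and 2, and its change of -1.03 on the log2 scale (standard error 0.09, adjusted p = 4.70e-30 in edgeR) was the lowest of the 40. Prim1, which makes the RNA primer in the same complex, fell by 0.64 on the log2 scale, whereas Pola2 had a log2 fold change of 0.06. Pold1 and Pold2, the subunits of polymerase delta, rose by log2 fold changes of 0.49 and 0.54, which passed the adjusted p (2.77e-11 and 6.59e-15 in edgeR) and not the 1.5-fold threshold. Pold2 had 125 and 174 CPM in control and 123 and 187 CPM in Kap1 KD, without overlap of the replicate numbers.

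Of the RPA genes, Rpa3 fell from 27.8 to 19.0 CPM in control and from 24.5 to 14.3 CPM in Kap1 KD, which is -0.66 on the log2 scale (standard error 0.09, adjusted p = 1.63e-12 in edgeR). Rpa1 and Rpa2 had log2 fold changes of 0.14 each. In the MCM ring no gene passed 1.5-fold. Mcm4 had the largest difference, with a log2 fold change of -0.33 (adjusted p = 2.69e-05 in edgeR), and Mcm5 and Mcm7 rose by 0.26 and 0.30 on the same scale (adjusted p = 3.72e-06 and 5.53e-07). Fen1 rose from 6.59 to 8.89 CPM in control and from 7.11 to 9.90 CPM in Kap1 KD (log2 fold change 0.45, adjusted p = 6.66e-04 in edgeR), with the overlap on the opposite strand given above. Across the 40 genes both replicate 2 samples lay below both replicate 1 samples in 17 and above them in 12, against 37.2% and 35.5% of all tested genes.

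**Figure D3:**
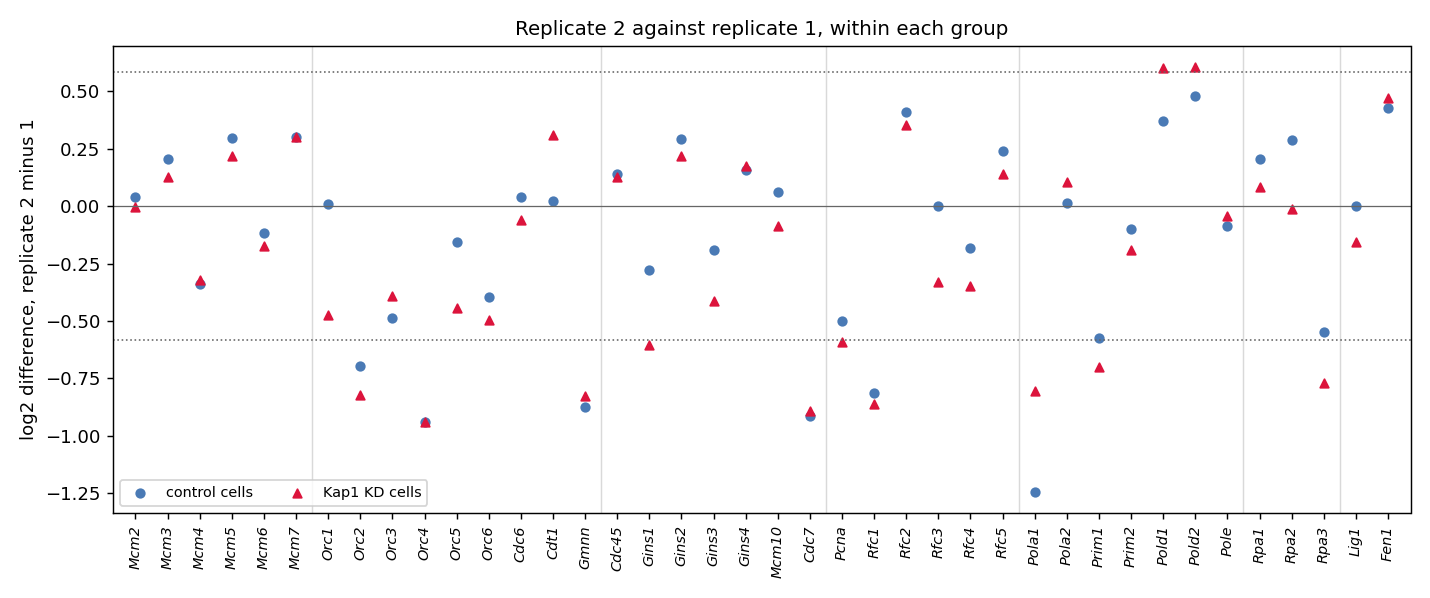
Log2 difference of replicate 2 and replicate 1 for the 40 replication genes, ordered by role, with control cells as circles and Kap1 KD cells as triangles, and 1.5-fold as dotted lines. The control and Kap1 KD symbols lie close together for most genes. Subunits of the same complex can lie on opposite sides of 0, such as Rfc1 and Rfc2.

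The base composition of the transcripts moved with this difference. Across the 40 genes, the log2 fold change of replicate 2 against 1 and the GC content of the longest coding transcript had a Spearman correlation of 0.84 and a Pearson correlation of 0.81, and across 12417 tested genes with a coding transcript these were 0.68 and 0.59. All these genes share the same 4 libraries, and genes are not independent replicates. The median GC content was 45.5% over the 19 members that fell at an adjusted p under 0.05 in edgeR, 53.4% over the 11 that rose and 50.8% over the other 10. By bins of GC content, the median change of the members was -0.94 under 42%, -0.39 from 42% to under 46%, -0.16 from 46% to under 50%, 0.17 from 50% to under 54% and 0.28 from 54% upwards. Over all genes the medians of these bins were -0.80, -0.43, -0.13, 0.16 and 0.37. The exonic length had a Spearman correlation with the change of -0.10 in the members and -0.19 in all genes. The change of Kap1 KD against control had a Spearman correlation with GC content of 0.59 in the members and 0.35 in all genes.

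**Figure D4:**
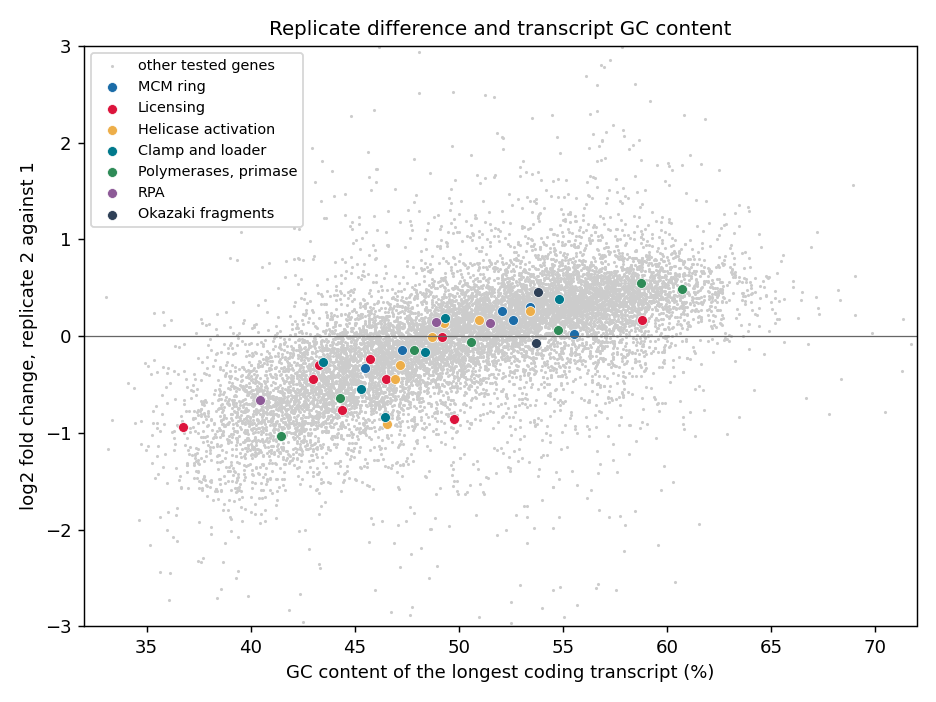
Log2 fold change of replicate 2 against replicate 1 against the GC content of the longest coding transcript (%), for the 40 replication genes in colours by role and for the other tested genes in grey, of which 30 lie outside the plotted range. Members at low GC content, such as Orc4 at 36.8%, lie low and members at high GC content, such as Pold1 at 60.7%, lie high, within the cloud of all genes.

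The difference in composition can be read in the coding sequence of the members at either end. The first 100 bases of the longest annotated coding exon in mm9 are printed, 5′ to 3′ on the strand of the gene, for Pola1 and Orc4, which fell most, and for Pold1 and Pold2, which rose most, with G and C in capitals. G and C make up 34% of the stretch of Pola1 (chrX:90736188-90736287), 36% of that of Orc4 (chr2:48761020-48761119), 65% of that of Pold1 (chr7:51798707-51798806) and 63% of that of Pold2 (chr11:5776836-5776935), all on the minus strand. The stretches of Pold1 and Pold2 begin with ATG and those of Pola1 and Orc4 do not, so that they are unlike parts of the genes. Over the longest coding transcript the GC content was 41.5% for Pola1, 36.8% for Orc4, 60.7% for Pold1 and 58.7% for Pold2.
Pola1 coding stretch: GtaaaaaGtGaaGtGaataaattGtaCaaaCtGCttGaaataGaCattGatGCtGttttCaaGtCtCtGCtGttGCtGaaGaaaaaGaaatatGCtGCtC
Orc4 coding stretch: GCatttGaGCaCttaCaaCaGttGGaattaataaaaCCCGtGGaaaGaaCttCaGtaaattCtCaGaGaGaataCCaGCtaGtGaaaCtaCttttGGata
Pold1 coding stretch: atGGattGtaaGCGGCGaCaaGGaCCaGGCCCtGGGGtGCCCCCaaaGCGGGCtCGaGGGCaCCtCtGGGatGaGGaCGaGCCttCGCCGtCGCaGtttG
Pold2 coding stretch: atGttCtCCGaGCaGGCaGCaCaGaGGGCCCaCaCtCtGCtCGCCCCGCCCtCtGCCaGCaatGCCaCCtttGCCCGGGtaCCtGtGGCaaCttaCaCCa

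With each library's trend on GC content taken out, a correction chosen after seeing the data, 2 of the 40 genes were called, Gmnn at a log2 fold change of -0.85 (adjusted p = 2.76e-29 in edgeR) and Cdc7 at -0.66 (adjusted p = 7.41e-09), against 6.31% of all genes with a GC content that were lower. Gmnn, with a GC content of 49.8%, changed as much with as without the correction. Rfc1 at -0.58 and Pola1 at -0.34 no longer passed 1.5-fold, Orc2 and Prim1 had log2 fold changes of -0.34 and -0.21, and the values of Orc4, Rpa3 and Mcm4 changed sign to 0.09, 0.12 and 0.00. The E2F words above were in 1 of the 11 windows of the genes that fell without the correction (9.09%) and in 12 of the 30 windows of the other members (40%). The 11 windows belong to only 7 genes, some of them with several windows, and the 30 windows to 25 genes. Gmnn had no window.

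The other lists also held genes that differed between the replicate numbers, where 17.4% of all tested genes fell and 9.08% rose. Of the 35 further replication and fork genes, 10 fell (28.6%) and 1 rose past both thresholds (Rnaseh2c, a ribonuclease subunit), led by Rif1, a regulator of origin timing, which fell from 61.0 to 18.2 CPM in control and from 47.2 to 16.9 CPM in Kap1 KD (log2 fold change -1.61, adjusted p = 1.06e-86 in edgeR). Atad5, which unloads PCNA, fell by 1.23 and Top1, a topoisomerase, by 1.05 on the log2 scale. Of 16 nucleotide supply genes, 2 fell (12.5%) and 1 rose (6.25%), among them Rrm2b, a subunit of ribonucleotide reductase, at -1.03 and Gart, an enzyme of purine synthesis, at 0.66, and the median change of this list was 0.075. Of 22 genes of the E2F, Rb and cyclin E axis, 5 fell (22.7%) and 0 rose, namely Ccne2 (-1.05), Rb1 (-0.89), E2f2 (-0.81), E2f5 (-0.70) and Rbl1 (-0.65), the last 2 of them outside the rule for named genes. With the GC correction the counts became 3 fallen of 35, 0 of 16 and 1 of 22, with none risen. With this correction 6.31% of all genes with a GC content fell and 5.73% rose. Those still past both thresholds were Rif1 at -0.76, E2f2 at -1.14 and, outside the rule for named genes, Dscc1 at -0.69 and Topbp1 at -0.60.

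Among 24 mitotic genes 10 fell (41.7%, against 17.4% of all tested genes) and 0 rose past both thresholds. Mki67, the gene of the proliferation antigen Ki-67, had 360 and 137 CPM in control replicates 1 and 2 and 330 and 132 CPM in Kap1 KD replicates 1 and 2, or -1.36 on the log2 scale (standard error 0.06, adjusted p = 6.78e-109 in edgeR). The kinetochore genes Cenpe and Cenpf had log2 fold changes of -1.41 and -1.40. With the GC correction these 3 of the 24 were the mitotic genes still called, at -1.11, -0.86 and -0.88, where 6.31% of all genes with a GC content fell. Other mitotic genes stayed level, such as Cdk1 with 373 and 390 CPM in control and 380 and 358 CPM in Kap1 KD (chosen after its values were seen). Of 11 inhibitors, Gadd45a fell by 1.14 on the log2 scale and Cdkn1a, the gene of p21, rose from 162 to 240 CPM in control and from 230 to 394 CPM in Kap1 KD (log2 fold change 0.68, adjusted p = 7.09e-30 in edgeR). With the GC correction Gadd45a was still called, at -1.13, and Cdkn1a at 0.42 no longer passed 1.5-fold.

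Replication-dependent histone genes, whose mRNAs are made in S phase and normally lack a poly(A) tail, rose in 28 of 38 tested genes (73.7%, against 9.08% of all tested genes) and fell in 0 between the replicate numbers. Their summed level was 50.9 and 56.7 CPM in control replicates 1 and 2, 53.2 CPM in Kap1 KD replicate 1 and 113 CPM in Kap1 KD replicate 2, with a median difference between the replicate numbers of 0.070 on the log2 scale in control and 1.61 in Kap1 KD cells. The last library stood apart, and it also held the high level of 7SK RNA. The part of that library's RNA composition was not tested. The 40 replication genes together summed to 5415 and 5531 CPM in control and 5339 and 5317 CPM in Kap1 KD, nearly the same in the 4 libraries. Role groups within this sum moved in opposite directions. In replicates 1 and 2, the MCM ring summed to 2399 and 2627 CPM in control and to 2430 and 2595 CPM in Kap1 KD. The licensing genes summed to 658 and 534 CPM and to 609 and 497 CPM. The clamp and its loader summed to 833 and 739 CPM and to 824 and 686 CPM.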

How the data were processed

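Polyadenylated RNA of 4 Hepa 1.6 samples was analysed. The authors aligned reads to mm9 with TopHat2 2.0.11 and counted them per Ensembl gene with HTSeq 0.6.1, per the submitters' processing notes, and deposited whole-number counts without normalization. The strand setting is not given in the sources used here. Differential expression was computed from the counts in R 4.3.3 with edgeR 4.0.16 (low-count filter filterByExpr, TMM scaling, quasi-likelihood F test), Kap1 KD against control without a replicate term and replicate 2 against 1 with the group as a term, with Benjamini-Hochberg adjustment over 14142 genes and calls at 1.5-fold and an adjusted p under 0.05. DESeq2 1.42.0 was an alternative. The pipeline was tested on simulated data. Log2 differences per pair used CPM plus 0.1. Symbols, exons and GC content came from the mm9 annotation, which gave a symbol to 21806 of 21915 genes. GC correction used offsets from each library's loess trend (span 0.3). Near-identical copies needed 95% identity over 300 bases (BLAST 2.17.0).

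The members and lists were chosen with earlier results of these data known. Values in every sample are given for Trim28, the 5 members with the largest change in Kap1 KD, the member of each of the 7 roles that changed most between replicate numbers, Pcna, Rpa1 and the MCM ring. From each other list up to 3 called genes with the largest change were named, many of them by log2 fold change only. Ticrr, Cdkn1c, Gas1, Thy1 and Cd3e were among the list genes not analysed here, and a gene that the rule selects is not reported here. Alternatives covered tool, scaling, filter, thresholds, block, pseudocount, length and each sample left out. Depth was 41566888 to 53605115 counts per sample, and no molecular identifiers were used, so that reads are not separate molecules.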

Additional observations from a re-analysis of the deposited data

How the results depend on the processing

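No replication gene passed both thresholds in Kap1 KD against control under any alternative run, while 2 settings without the fold threshold gave calls. The numbers in the titles may pair the samples, whose same-numbered deviations correlated at 0.813 across genes, but with 2 pairs this stays a hint from the data. With the replicate number as a replicate block, edgeR called 631 of all genes and DESeq2 234, and 0 of the 40 with either, the median of the 40 being -0.051. With the block and an adjusted p alone, added after seeing the data, edgeR called 3052 genes and 9 of the 40 (Orc4, Orc5, Cdc6, Gmnn, Cdc7, Pcna, Rfc1, Rpa1 and Rpa3, all lower, where 11.5% of all genes were lower), and DESeq2 called 858 genes and 1 of the 40 (Rpa1, log2 fold change -0.26, adjusted p = 0.028). With block and GC correction the number of all genes was 493. Without the block, DESeq2 called 3 genes, and leaving out each sample in turn gave 3 to 53 genes, the lone sample of a group being assumed to vary like the others.

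The median change of the 40 in Kap1 KD was 0.0077 with GC correction, 0.0041 with GC correction and block, and -0.139 to 0.0515 with each sample left out, above 0 without control replicate 1 (0.0057) and without Kap1 KD replicate 2 (0.0515). Without control replicate 1 the log2 fold changes of Orc4, Cdc7 and Rpa3 reversed to 0.24, 0.23 and 0.033, and without Kap1 KD replicate 2 to 0.10, 0.089 and 0.079, since the replicate numbers are then unequal between the groups. Without Kap1 KD replicate 1 they were -0.859, -0.827 and -0.709.

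Between the replicate numbers, an adjusted p alone called 30 of the 40 and 8990 genes. GC correction, added later, called 2 of the 40 and 1495 genes, or 20 of the 40 and 6295 genes on the adjusted p alone, where 50.7% of genes with a GC content were called, and moved the median of the 40 to 0.043. Mcm4, Orc4 and Rpa3 reversed to 0.0014, 0.089 and 0.12. Leaving out each sample, with no group term since none else could be fitted, called 6 to 12 of the 40 and 1257 to 4105 genes, with medians from -0.17 to -0.0457. Cdc7 and Rpa3 lost their calls without control replicate 1, Prim1 and Rpa3 theirs without Kap1 KD replicate 2, and without control replicate 2 there were 12 calls, Pold1 and Pold2 among them as higher. The scalings, the filter and DESeq2 gave 8 or 9 of the 40. Of all genes called, 1284 of 3748 were higher with TMM, 847 of 3804 with total counts, which put the median of all genes at -0.0935, and 711 of 1495 with GC correction. With the length of the longest transcript the median level was 32.5 CPM per kb. The causes of these shifts were not tested.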
